A study of Mus musculus with 9 samples.

Results

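The genes that bring glucose into the cells of the nervous system and pass lactate between them were followed in the spinal cord of male mice. They are 8 genes chosen by symbol, and all 8 were found among the 40879 gene symbols of the deposited tables. They comprise the glucose carriers Slc2a1 and Slc2a3, the lactate dehydrogenase subunits Ldha and Ldhb, the monocarboxylate carriers Slc16a1, Slc16a3 and Slc16a7, and Bsg, the chaperone of 2 of these carriers. The 9 RNA sequencing libraries were SNI+LDN193189, SNI and sham, 3 in each. SNI is read here as spared nerve injury, a model of neuropathic pain in which some branches of the sciatic nerve are cut, and a sham animal has the operation without the nerve lesion. LDN193189 is a small-molecule inhibitor of the BMP type I receptor kinases, ACVR1 among them, and the series title links ACVR1 to glycolysis and histone lactylation in neuropathic pain. Mouse strain, age, cord segment and side, time after injury, and the compound's dose, route and vehicle are not in the labels. No group had LDN193189 without SNI, so the compound can be compared only among injured animals or with sham.

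The libraries held 33432776 to 37190467 counts, and 18245 genes passed the filter on low counts, all 8 of these genes among them. The columns carry the letters L, N and S, which were read as SNI+LDN193189, SNI and sham from the names alone. If S stood for SNI, the sign of every SNI against sham value would invert, and SNI+LDN193189 would in each case have been set against the other of those groups. Sprr1a, a gene of injured neurons, had 0.685 to 17.2 CPM (counts scaled to the library total) in the columns read as SNI+LDN193189, 6.52 to 23.3 CPM in those read as SNI and 0.163 to 0.231 CPM in those read as sham. The labels call the replicates biosamples and do not mention separate animals, so the spread behind each p-value is that between biosamples, which may be technical. The tissue carried its main cell types: summed neuron markers reached 9308 to 10573 CPM, oligodendrocyte markers 25908 to 29683 CPM and astrocyte markers 7783 to 8888 CPM over the 9 libraries, although Aqp4, an astrocyte water channel, was listed at 0 throughout. In 1 sham library, replicate 1, markers of skeletal muscle summed to 842 CPM, against 5.44 to 21.6 CPM in the other 8. In another, sham replicate 3, markers of Schwann cells and nerve root summed to 4536 CPM, against 270 to 1557 CPM in the other 8.

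Neural tissue takes up glucose by facilitated transport. The protein of Slc2a1, GLUT1, carries it across the endothelium of the blood-brain barrier and into astrocytes, and the protein of Slc2a3, GLUT3, into neurons. Lactate dehydrogenase is a tetramer of the subunits encoded by Ldha and Ldhb: subunits from Ldha favour the making of lactate from pyruvate, and those from Ldhb favour its use. In the astrocyte-neuron lactate shuttle, glia release lactate through the carriers MCT1 and MCT4, encoded by Slc16a1 and Slc16a3, and neurons take it up through the high-affinity carrier MCT2, encoded by Slc16a7. Bsg encodes basigin, which brings MCT1 and MCT4 to the cell surface.

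Hypoxia-inducible factors (HIF) are known to switch on Slc2a1, Ldha and Slc16a3, and bind DNA at a short core. The RefSeq promoter windows (GRCm38.p6, 300 bases each, from 250 before to 50 after the start) of 3 genes are shown because these genes gave the largest fitted difference between groups and the contrast between the subunits. Capitals mark each ACGTG or GCGTG on either strand, overlapping matches being joined; on the other strand they read CACGT and CACGC. The windows lie at chr4:119108495-119108794 on the plus strand for Slc2a1, at chr7:46845554-46845853 on the plus strand for the upstream of 2 Ldha starts, and at chr6:142507908-142508207 on the minus strand for Ldhb. In GENCODE M21 on GRCm38 the genes themselves span chr4:119108711-119137983 (Slc2a1, principal transcript of 10 exons), chr7:46841475-46855627 (Ldha, 8 exons) and chr6:142490249-142507957 (Ldhb, 8 exons). The Slc2a1 and Ldhb windows cover the 5′ end of that span and the bases before it. The Ldha window is set on a RefSeq start and lies inside the span.
Slc2a1: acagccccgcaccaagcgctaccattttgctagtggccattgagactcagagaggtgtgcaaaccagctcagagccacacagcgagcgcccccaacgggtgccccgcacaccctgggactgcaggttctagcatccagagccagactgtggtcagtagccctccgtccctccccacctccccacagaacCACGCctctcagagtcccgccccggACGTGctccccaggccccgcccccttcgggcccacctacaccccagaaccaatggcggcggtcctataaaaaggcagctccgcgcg
Ldha: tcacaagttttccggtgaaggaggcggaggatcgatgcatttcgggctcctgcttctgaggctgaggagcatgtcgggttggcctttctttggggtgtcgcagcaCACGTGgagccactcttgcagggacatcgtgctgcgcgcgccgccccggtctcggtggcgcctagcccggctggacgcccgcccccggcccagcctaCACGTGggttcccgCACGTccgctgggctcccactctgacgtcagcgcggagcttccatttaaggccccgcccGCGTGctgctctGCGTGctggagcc
Ldhb: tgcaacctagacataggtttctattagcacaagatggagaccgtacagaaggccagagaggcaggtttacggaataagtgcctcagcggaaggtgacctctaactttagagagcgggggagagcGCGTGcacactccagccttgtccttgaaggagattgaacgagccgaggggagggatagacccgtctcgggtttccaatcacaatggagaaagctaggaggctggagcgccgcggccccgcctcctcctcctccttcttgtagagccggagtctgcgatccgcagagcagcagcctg
The windows held 2 such runs for Slc2a1, 5 for Ldha and 1 for Ldhb. In the Ldha window 2 of the 5 runs were the palindrome CACGTG, which is also the E-box read by USF and MYC proteins. The window at the downstream Ldha start held 2 runs, that of Slc16a1 4 with 1 CACGTG, and that of Slc16a3 2. For Slc2a3, Slc16a7 and Bsg the reference used here held no window, so none was searched. ACGTG or GCGTG occurred in 43.8% of all 32851 mouse promoter windows of this length and CACGTG in 7.15%, so a match is common and describes the letters only.

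Levels of the 8 genes in bulk cord spanned about 3 orders of magnitude in FPKM, a level scaled by gene length and library total. Ldhb was the most abundant, with a median of 408 FPKM over the 9 libraries (range 381 to 428), followed by Bsg with 193 (173 to 217). Slc2a1 had 46.1 (39.0 to 63.1), Slc16a1 23.8 (21.2 to 26.7), Slc2a3 16.6 (15.8 to 17.4) and Ldha 14.9 (12.3 to 17.3). The carriers Slc16a7, at 1.81 (1.70 to 2.06), and Slc16a3, at 0.316 (0.252 to 0.541), were the least abundant. Only Slc2a3 and Ldha overlapped among neighbours in this order. Among the genes with a count, Ldhb stood at percentile 99.8 and Slc16a3 at percentile 40.5 of FPKM.

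The place of Ldha in that order depended on gene length. The deposited FPKM imply a length of 5332 bases for Ldha, while its principal transcript in GENCODE M21, Ldha-201, has 1766 bases and all its exons together cover 3310. With CPM per kilobase of principal transcript, Ldha moved from place 6 to place 3, with a median of 45.1 CPM per kilobase (37.1 to 52.2). Slc2a1 was then at 37.8 (32.0 to 51.7), Slc2a3 at 25.0 (23.8 to 26.3) and Slc16a1 at 23.8 (21.2 to 26.7). Ldhb, at 406 (378 to 425), and Bsg, at 220.5 (198 to 248), kept the first 2 places, and Slc16a7 and Slc16a3 the last 2. The same length enters every library, so no comparison between groups depends on it. For Ldha 4 processed pseudogenes share at least 150 bases at 95% identity or more, and for Ldhb 1. None of these copies was found by its symbol among the gene symbols of the deposited tables. How reads that match both gene and copy were counted is not given in the sources used here.

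**Figure D1:**
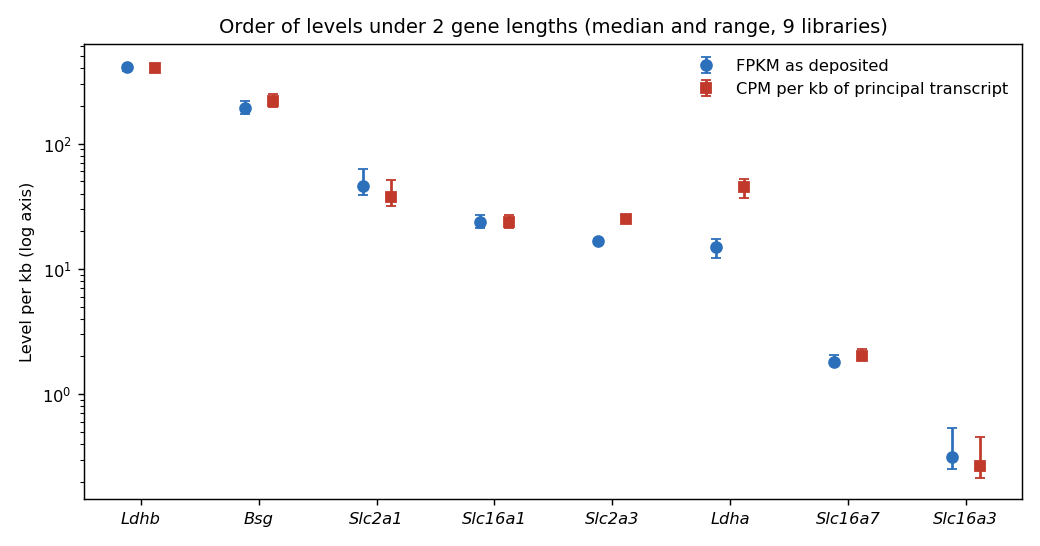
Level of each gene per kilobase on a log axis, as the median and the range over 9 libraries, by the deposited FPKM (circles) and by CPM per kilobase of the principal GENCODE transcript (squares). Ldha is at 14.9 by the first and at 45.1 by the second, while Ldhb and Bsg lead under both.

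Slc2a1 showed the largest fitted difference of the 8 genes in both comparisons of SNI+LDN193189, higher in that group. It had 136, 134 and 168 CPM in SNI+LDN193189 replicates 1, 2 and 3, against 117, 109 and 123 CPM in SNI and 104, 123 and 126 CPM in sham. All 3 SNI+LDN193189 libraries lay above all 6 others, and replicate 3 stood apart from the other two. The group means were 146 ± 19.1 CPM in SNI+LDN193189, 116 ± 6.96 CPM in SNI and 118 ± 11.9 CPM in sham (SD, n = 3 each). Against SNI the log2 fold change was 0.34 (SE 0.0977, 95% interval 0.12 to 0.56), or 26.6% higher, and against sham it was 0.33 (SE 0.0977, 0.11 to 0.55). These intervals are not corrected for the number of genes. Neither difference passed the edgeR quasi-likelihood test with Benjamini-Hochberg (BH) adjustment over all genes, with adjusted p = 0.9996 against SNI and 0.457 against sham, although both had an unadjusted p under 0.05.

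Tools differed on Slc2a1. In the joint edgeR test of the 3 groups it had an adjusted p = 0.744, whereas the DESeq2 likelihood ratio test gave an adjusted p = 0.0423, the only one of the 8 genes it called. That test called 0.343% of the genes for which it gave an adjusted p, and the joint edgeR test called 0.00548% of genes and none of the 8. By DESeq2 the separate comparisons did not pass, with adjusted p = 0.226 against SNI and 0.0681 against sham, and limma-voom with sample weights gave 0.51 and 0.592. The joint DESeq2 call was lost without SNI+LDN193189 replicate 3 (adjusted p = 0.765), SNI replicate 1 (0.073) or SNI replicate 2 (0.134), and held without any 1 of the other 6 libraries (0.00745 to 0.025). Without SNI+LDN193189 replicate 3 the log2 fold change was 0.23 against SNI and 0.22 against sham, and without sham replicate 1 it was 0.24 against sham.

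Slc2a1 is an endothelial gene, so its values are set beside those of the endothelial markers, most of which had a lower fitted level in SNI+LDN193189. Their sum was 513 to 559 CPM in SNI+LDN193189, 518 to 582 CPM in SNI and 512 to 679 CPM in sham, and the library with the most Slc2a1, SNI+LDN193189 replicate 3, had 513 CPM. Of the 12 markers, 8 had a lower fitted level in SNI+LDN193189 against SNI (median log2 fold change -0.14) and 9 against sham (median -0.23). In the edgeR test 0 passed after adjustment, while 3 and 6 had an unadjusted p under 0.05, all of them lower. Of all genes tested 1.69% were higher and 2.19% lower at that level against SNI, and 4.07% and 4.49% against sham. The markers higher against both groups were Ly6c1 (log2 fold change 0.18 against SNI and 0.12 against sham), Slco1a4 (0.058 and 0.20) and Abcb1a (0.093 and 0.074). The largest falls were those of Kdr (-0.69 and -0.74) and Cldn5 (-0.39 and -0.66). Astrocyte markers summed to 8416 to 8821 CPM in SNI+LDN193189, 8509 to 8888 CPM in SNI and 7783 to 8517 CPM in sham. Of the 11 astrocyte markers 7 had a higher fitted level in SNI+LDN193189 against SNI and 9 against sham. An unadjusted edgeR p under 0.05 was reached by 1 of them against SNI, Gja1, which was lower (log2 fold change -0.19). Against sham it was reached by 2, Gja1, lower (-0.22), and Aldoc, higher (0.14). Of the 11 microglia markers 8 and 11 had a higher fitted level (0 and 8 at an unadjusted p under 0.05). Microglia markers summed to 361 to 390 CPM in SNI+LDN193189, 329 to 382 CPM in SNI and 301 to 326 CPM in sham, with P2ry12, a defining microglial receptor, listed at 0 throughout. The part of these cell types in the Slc2a1 values was not tested. In bulk tissue a change in the number of cells of a type and in RNA per cell cannot be told apart. An antisense gene, Gm12868, shares exon bases with Slc2a1; the libraries were strand-specific per the labels, but whether counting used the strand is not stated.

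**Figure D2:**
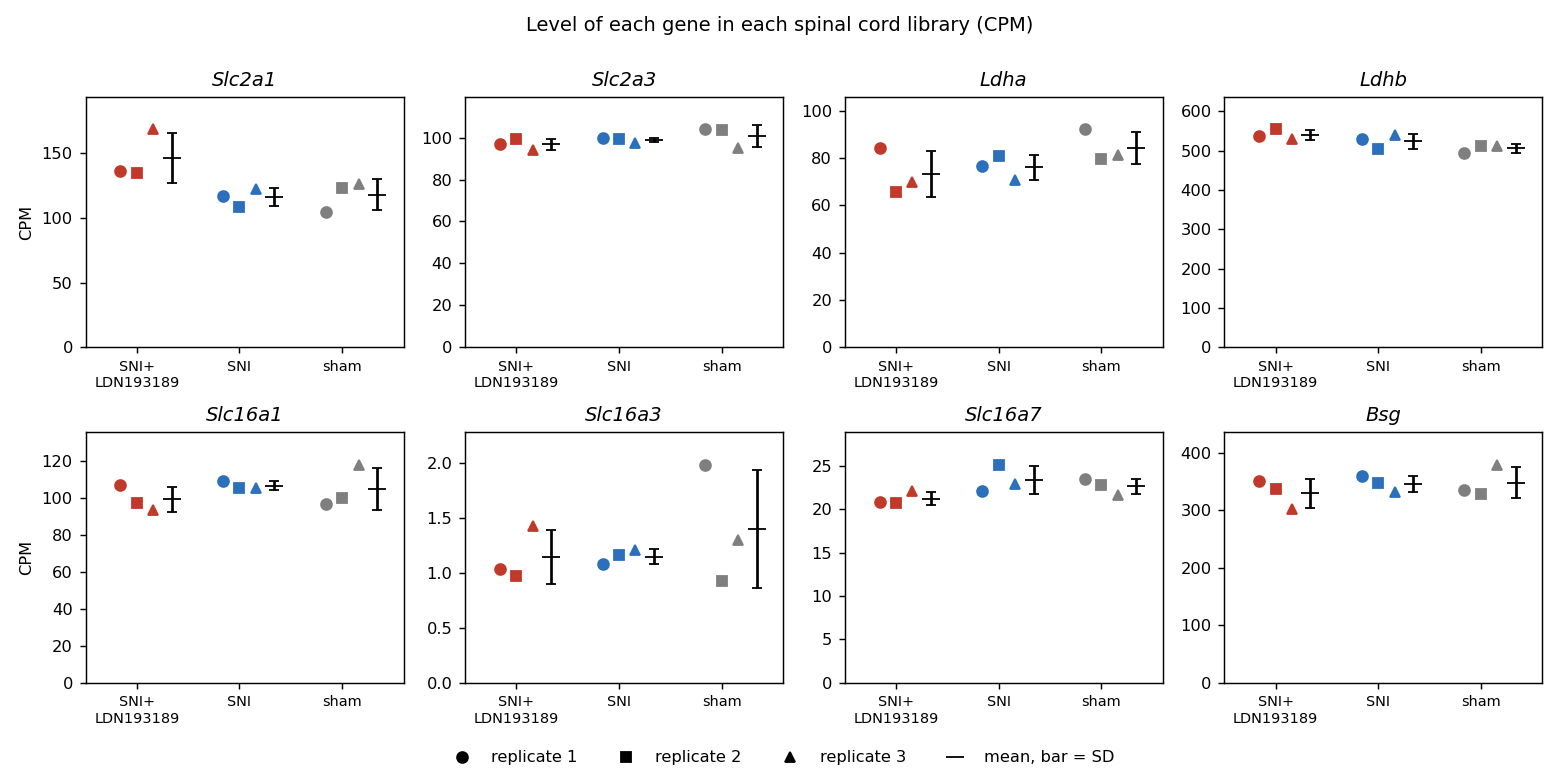
Level in each library in CPM (axis from 0) for the 8 genes in SNI+LDN193189, SNI and sham, with symbols for replicates 1 to 3 and the mean and SD beside them. For Slc2a1 the 3 SNI+LDN193189 libraries, at 134 to 168 CPM, lie above the other 6; for Ldhb they lie above sham only; the groups of most other genes overlap.

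Slc2a3, the neuronal glucose carrier, was close to even across the groups. It had 96.9, 99.4 and 94.1 CPM in SNI+LDN193189, against 99.7, 99.2 and 97.6 CPM in SNI and 104, 104 and 94.9 CPM in sham. The groups overlapped, and the largest and smallest libraries differed by a factor of 1.10. The fitted change was -1.59% in SNI+LDN193189 against SNI (95% interval -9.52 to 7.03%), -2.94% against sham (-10.8 to 5.56%) and -1.37% in SNI against sham (-9.31 to 7.26%). Fold changes larger than these bounds lay outside the unadjusted intervals.

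The balance of the glucose carriers was read as a ratio within each library. The ratio of Slc2a1 to Slc2a3 in FPKM was 3.39 ± 0.532 in SNI+LDN193189, 2.63 ± 0.178 in SNI and 2.62 ± 0.366 in sham (SD, n = 3 each). The SNI+LDN193189 libraries, at 3.02 to 4.00, lay above those of SNI, at 2.45 to 2.81, and sham, at 2.24 to 2.97. The mean log2 ratio was higher by 0.36 against SNI and by 0.37 against sham. Each comparison had p = 0.1 in a two-sided exact permutation test, the smallest that 3 against 3 libraries allow, and 0.6 after BH adjustment over the 12 ratio comparisons made. The level of this ratio, but not its comparison between groups, depends on the gene lengths in the deposited tables, 2671 bases for Slc2a1 and 5970 for Slc2a3. With the lengths of the principal transcripts, 3260 and 3959 bases, it was 1.84 ± 0.289 in SNI+LDN193189, 1.43 ± 0.0969 in SNI and 1.43 ± 0.199 in sham (CPM per base over CPM per base, SD, n = 3 each).

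Ldha, the subunit that favours lactate formation, had its highest library in sham and its lowest in SNI+LDN193189. It stood at 84.1, 65.4 and 70.0 CPM in SNI+LDN193189, against 76.7, 81.0 and 70.5 CPM in SNI and 92.1, 79.6 and 81.3 CPM in sham. The groups overlapped in all comparisons, since SNI+LDN193189 replicate 1 and SNI replicate 2 reached the range of sham. The means were 73.2 ± 9.72 CPM in SNI+LDN193189, 76.1 ± 5.29 CPM in SNI and 84.3 ± 6.80 CPM in sham (SD, n = 3 each). The log2 fold change of SNI against sham was -0.14 (SE 0.0895, adjusted p = 0.941 by edgeR), that of SNI+LDN193189 against sham -0.19 (SE 0.0896, adjusted p = 0.594), and that of SNI+LDN193189 against SNI -0.051 (SE 0.0898, adjusted p = 0.9996). A rise of Ldha in SNI against sham above 4.01% lay outside the unadjusted 95% interval, which ran from -20.6 to 4.01%.

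Sham replicate 1, the library with 842 CPM of skeletal muscle markers, also had the most Ldha. Without that library the log2 fold change was -0.075 in SNI against sham and -0.13 in SNI+LDN193189 against sham. Of the 10 muscle markers, 9 had a lower fitted level in SNI against sham, and all 10 in SNI+LDN193189 against sham, with none passing the adjusted edgeR test (8 and 2 had an unadjusted p under 0.05, beside 3.31% and 4.49% of all genes that were lower at that level). Beyond leaving out that library, their part in the Ldha values was not tested. Without SNI+LDN193189 replicate 1 the Ldha value against sham was -0.30, and without SNI+LDN193189 replicate 2 that against SNI was 0.018.

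Ldhb, the subunit that favours lactate use, had the opposite order of group means. It stood at 538, 554 and 529 CPM in SNI+LDN193189, against 529, 503 and 540.2 CPM in SNI and 493, 512 and 512 CPM in sham. All 3 SNI+LDN193189 libraries lay above all 3 sham libraries, by a narrow margin, while SNI overlapped both. The means were 540.4 ± 12.8 CPM in SNI+LDN193189, 524 ± 19.1 CPM in SNI and 506 ± 10.99 CPM in sham (SD, n = 3 each). SNI+LDN193189 against sham gave a log2 fold change of 0.11 (SE 0.0505, 95% interval 0.0037 to 0.22), or 8.00% higher, with an adjusted p = 0.574 by edgeR. SNI against sham gave 4.31% (interval -3.17 to 12.4%) and SNI+LDN193189 against SNI 3.54% (-3.89 to 11.5%).

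Read as a ratio within a library, Ldha was a small part of Ldhb everywhere, and the ratio was 0.0329 ± 0.0047 in SNI+LDN193189, 0.0354 ± 0.00372 in SNI and 0.0406 ± 0.00419 in sham (FPKM over FPKM, SD, n = 3 each). With the deposited length of Ldha this ratio is low in absolute terms; its comparison between groups is not affected. The mean log2 ratio differed by -0.30 in SNI+LDN193189 against sham, -0.20 in SNI against sham and -0.11 in SNI+LDN193189 against SNI. The two-sided exact permutation p-values were 0.2, 0.3 and 0.5, and the BH-adjusted values 0.8, 0.9 and 1.0, so no comparison passed. Over the 9 libraries log2 CPM of Ldha and Ldhb correlated at Pearson r = -0.75, between -0.88 and -0.60 with any 1 library left out. This is a description over libraries that share the groups and the scaling to a total.

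**Figure D3:**
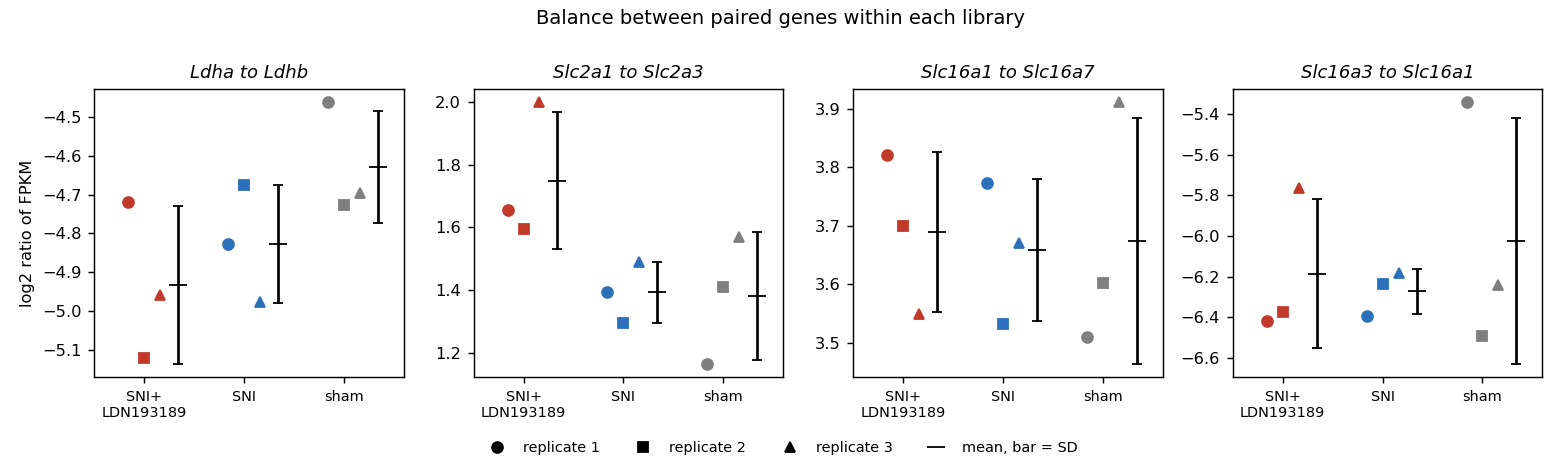
Log2 ratio of FPKM of paired genes within each library (vertical axis) in SNI+LDN193189, SNI and sham, with symbols for replicates and the mean and SD beside them. Slc2a1 to Slc2a3 is higher in SNI+LDN193189 without overlap, whereas in the other 3 panels the groups overlap.

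Slc16a1, the carrier of endothelium and glia, had 107, 97.6 and 93.7 CPM in SNI+LDN193189, against 109.5, 105 and 106 CPM in SNI and 97.0, 100.3 and 118 CPM in sham. The SNI libraries lay close together, and the range of sham took in all the others except SNI+LDN193189 replicate 3. The fitted change was -6.60% in SNI+LDN193189 against SNI (95% interval -15.7 to 3.42%), -4.29% against sham (-13.6 to 5.98%) and 2.48% in SNI against sham (-7.44 to 13.5%). Its highest library was sham replicate 3, the one with 4536 CPM of nerve root markers and 944 CPM of meningeal fibroblast markers. Without it the log2 fold change was 0.11 in SNI against sham and 0.013 in SNI+LDN193189 against sham, in place of 0.035 and -0.063.

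Bsg, the chaperone, varied with its carrier Slc16a1 from library to library. It had 351, 336 and 302 CPM in SNI+LDN193189, against 359, 347 and 332 CPM in SNI and 336, 329 and 379 CPM in sham, the highest again being sham replicate 3. The groups overlapped throughout. The fitted change was -4.35% in SNI+LDN193189 against SNI (interval -13.1 to 5.26%), -4.15% against sham (-12.9 to 5.48%) and 0.21% in SNI against sham (-8.93 to 10.3%). Pearson r of log2 CPM between Slc16a1 and Bsg was 0.88 over the 9 libraries, and 0.83 without sham replicate 3. The nerve root level was highest where both were highest, and its part in this was not tested.

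Slc16a3, the low-affinity carrier of glycolytic cells and muscle, was near the lower end of detection, with 32 to 73 counts in a library. It had 1.03, 0.973 and 1.43 CPM in SNI+LDN193189, against 1.08, 1.16 and 1.21 CPM in SNI and 1.98, 0.923 and 1.29 CPM in sham. The groups overlapped, and the value of 1.98 belonged to sham replicate 1, the library with the muscle markers. The log2 fold change was -0.28 in SNI against sham (SE 0.318), -0.27 in SNI+LDN193189 against sham (SE 0.318) and 0.005 in SNI+LDN193189 against SNI (SE 0.321). Without sham replicate 1 the 2 comparisons with sham turned to 0.055 and 0.06. The unadjusted 95% interval of SNI against sham ran from -48.2 to 32.0%, and the coefficient of variation of the level was 21.5% in SNI+LDN193189, 5.66% in SNI and 38.4% in sham. The part of the muscle markers in these values was not tested beyond leaving out that library.

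Slc16a7, the neuronal lactate carrier, had 20.9, 20.8 and 22.1 CPM in SNI+LDN193189, against 22.1, 25.2 and 22.9 CPM in SNI and 23.5, 22.8 and 21.7 CPM in sham. The SNI+LDN193189 libraries lay below those of SNI, with replicate 3 of the one only just under replicate 1 of the other (22.09 and 22.13 CPM), and overlapped sham. The fitted change was -8.81% in SNI+LDN193189 against SNI (interval -19.1 to 2.73%), with an adjusted p = 0.9996 by edgeR. It was -5.19% against sham (-15.8 to 6.82%) and 3.98% in SNI against sham (-7.68 to 17.1%). The ratio of Slc16a1 to Slc16a7 in FPKM averaged 12.9 ± 1.21 in SNI+LDN193189, 12.7 ± 1.05 in SNI and 12.9 ± 1.93 in sham, and the ratio of Slc16a3 to Slc16a1 averaged 0.014 ± 0.00378, 0.013 ± 0.000976 and 0.0163 ± 0.0073 in the same groups (SD, n = 3 each). The exact permutation p of these 6 comparisons ran from 0.7 to 1.0, where 0.1 is the smallest possible.

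**Figure D4:**
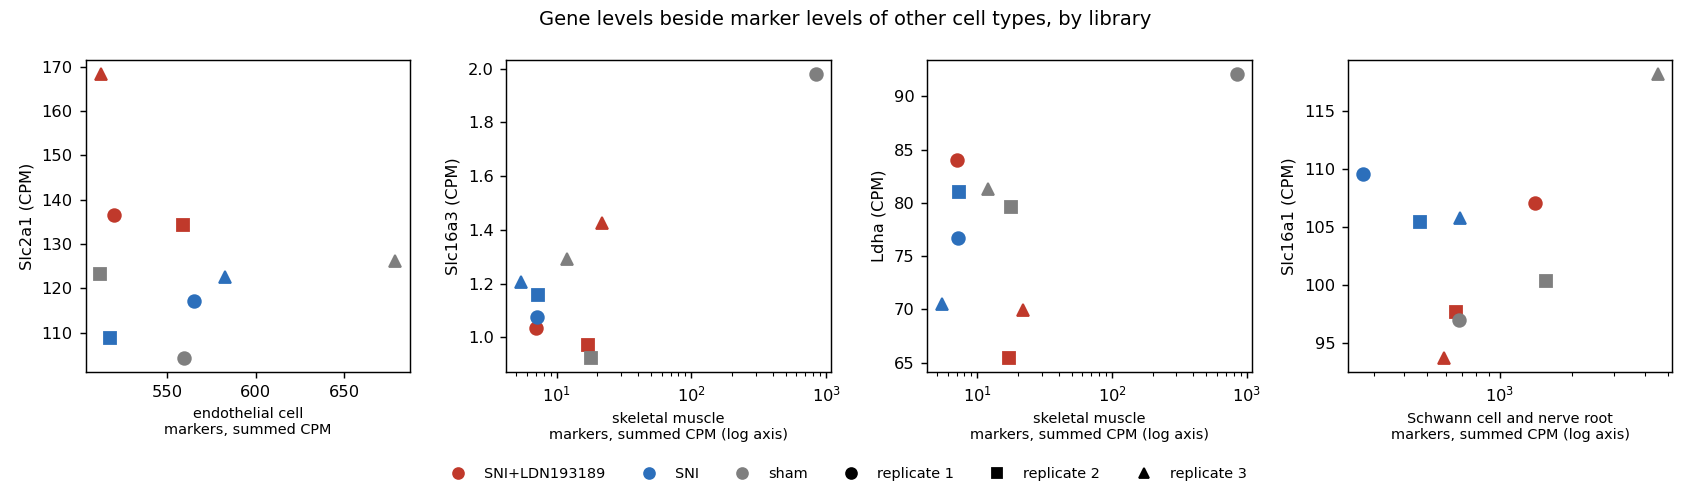
Level of 4 genes in CPM (vertical axes, not from 0) against summed CPM of cell type markers (horizontal axes, logarithmic for skeletal muscle and for Schwann cell and nerve root) in 9 libraries coloured by group. Slc2a1 is highest where endothelial markers are near their lowest; sham replicate 1 is far right for muscle and highest for Slc16a3 and Ldha, and sham replicate 3 far right for nerve root and highest for Slc16a1.

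Over the whole set, SNI against sham asked whether nerve injury altered the RNA of glucose import and lactate exchange. Of the 8 genes, 4 had a higher and 4 a lower fitted level in SNI, and 0 passed the adjusted edgeR test, which called 0.0% of the 18245 genes. None of the 8 had an unadjusted p under 0.05 in either direction, against 2.02% of genes higher and 3.31% lower. By DESeq2 0 of the 8 were called, beside 25 of the 20114 genes for which it gave an adjusted p. With the replicate number as a block in a fit of these groups alone, edgeR called 33 genes and none of the 8. No gene of the 8 had SNI libraries all above or all below those of sham, which held for 4.12% of all genes above and 5.18% below. The adjusted p-values ran from 0.941 to 0.999. The median log2 fold change was -0.0039 over the 8 genes and 0.00048 over all genes, and the median size of change, whatever its sign, was 0.046 and 0.085. The median SE was 0.0749 for the 8 and 0.118 for all genes.

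SNI+LDN193189 against SNI asked what the BMP receptor inhibitor did in injured animals. Slc2a1, Ldhb and Slc16a3 had a higher fitted level and the other 5 a lower one. By DESeq2 0 of the 8 were called, beside 7 of the 17062 genes for which it gave an adjusted p. In edgeR 0 of the 8 passed the adjusted test, which called 0.00548% of all genes. At an unadjusted p under 0.05 there was 1 of 8 higher, Slc2a1, and 0 lower, against 1.69% of all genes higher and 2.19% lower. Slc2a1 alone had all libraries above SNI and Slc16a7 alone all below, patterns found in 5.02% and 6.35% of all genes. The median log2 fold change was -0.037 over the 8 and -0.00075 over all genes.

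SNI+LDN193189 against sham gave 2 higher, Slc2a1 and Ldhb, and 6 lower. By DESeq2 0 of 8 were called, beside 62 of the 16051 genes for which it gave an adjusted p. In edgeR 0 of 8 passed the adjusted test, which called 0.0164% of all genes. Slc2a1 and Ldhb had an unadjusted edgeR p under 0.05, against 4.07% of all genes higher and 4.49% lower. The same 2 had all libraries above sham, as did 6.14% of all genes. None of the 8 had all libraries below sham, against 7.42% of all genes. The median log2 fold change was -0.062 over the 8 and -0.0069 over all genes. The comparisons share libraries, so their values for a gene are not independent.

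**Figure D5:**
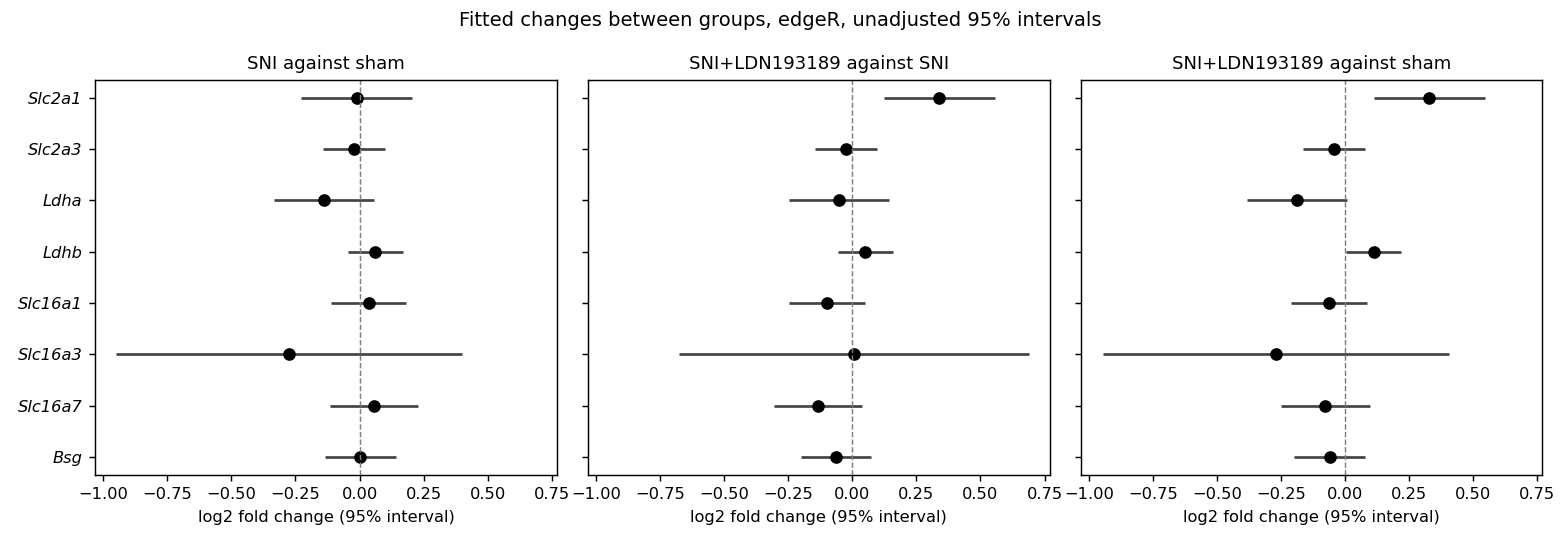
Fitted log2 fold change (horizontal axis, positive meaning higher in the group named before "against") with unadjusted 95% intervals from edgeR for the 8 genes in 3 comparisons. The intervals for Slc2a1 lie above 0 in both comparisons of SNI+LDN193189 and that for Ldhb above 0 against sham; none of these passed the adjusted test, and Slc16a3 has the widest intervals.

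The rest of the pathway was read from 8 lists of 104 genes, of which 98 were tested. None of the 98 passed the adjusted edgeR test in any comparison. At an unadjusted p under 0.05 there were 1 higher and 1 lower in SNI against sham, 3 higher and 1 lower in SNI+LDN193189 against SNI, and 6 higher and 1 lower in SNI+LDN193189 against sham. As shares of the 98 the last were 6.12% and 1.02%, beside the 4.07% and 4.49% of all genes given above. Aldoa, Txnip and Ldhal6b were listed at 0 in every library. Why they stand at 0 was not tested, so this is not read as absent expression.

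Among the glycolytic enzymes 17 of 22 had a higher fitted level in SNI against sham, their median log2 fold change being 0.052, and 0 of 22 at an unadjusted p under 0.05. Of all genes tested 50.1% had a higher fitted level in that comparison. So had 10 of 12 neuron, 10 of 12 oligodendrocyte and 11 of 11 microglia markers, with median log2 fold changes of 0.085, 0.091 and 0.20, whereas all 10 markers of Schwann cells and nerve root had a lower one (median -1.72). The part of these cell types in the count of glycolytic enzymes was not tested. Eno2, with a log2 fold change of 0.079 in SNI against sham, is in both the glycolytic and the neuron list. Eno1, an enolase, had 463 ± 2.81 CPM in SNI and 436 ± 5.45 CPM in sham, and Hk1, the hexokinase that commits glucose, 258 ± 7.24 CPM in SNI and 243 ± 7.71 CPM in sham (SD, n = 3 each). For both, the SNI libraries lay above those of sham, a pattern found in 4.12% of all genes. The log2 fold changes were 0.097 (SE 0.0475, adjusted p = 0.927 by edgeR) and 0.098 (SE 0.0505, adjusted p = 0.929). In SNI+LDN193189 against SNI, 15 of the 22 enzymes had a higher fitted level and 7 a lower one (median log2 fold change 0.014). Of all genes tested 49.8% were higher in that comparison, and 2.19% were lower at an unadjusted p under 0.05. Only Pfkfb4, which makes the activator of phosphofructokinase, had an unadjusted p under 0.05, and it was lower. It had 17.7 ± 1.63 CPM in SNI+LDN193189 and 22.0 ± 2.13 CPM in SNI, a log2 fold change of -0.30 with an adjusted p = 0.9996 by edgeR. Against sham 14 of 22 were higher in SNI+LDN193189, 3 of them at an unadjusted p under 0.05: Aldoc, the astrocyte aldolase (1357 ± 24.1 CPM in SNI+LDN193189, 1247 ± 71.8 CPM in sham), Eno1 and Pgam1. Of all genes tested 48.0% were higher in that comparison, and 4.07% were higher at that level.

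Genes that steer pyruvate into mitochondria gave the smallest p-values of the lists in both comparisons of SNI+LDN193189. Pdk2, a kinase that restrains pyruvate dehydrogenase, had 81.5, 81.0 and 80.3 CPM in SNI+LDN193189, against 74.5, 70.7 and 72.3 CPM in SNI and 70.9, 73.9 and 72.0 CPM in sham. Its libraries in SNI+LDN193189 lay above all others. Of all genes, 5.02% had all SNI+LDN193189 libraries above SNI and 6.14% above sham. The log2 fold change of Pdk2 was 0.16 against SNI (SE 0.0532) and 0.18 against sham (SE 0.0532), with adjusted p = 0.9996 and 0.425 by edgeR. Dlat, a subunit of pyruvate dehydrogenase itself, had 155 ± 1.94 CPM in SNI+LDN193189 and 142 ± 4.70 CPM in sham (adjusted p = 0.515). Pdk4, another kinase of the complex, had 22.8, 16.4 and 30.2 CPM in SNI+LDN193189, against 18.7, 17.8 and 14.7 CPM in SNI and 21.2, 18.7 and 20.4 CPM in sham. The groups overlapped, and its highest library was SNI+LDN193189 replicate 3, as for Slc2a1.

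In the other lists the named genes passed no adjusted test either. Hif1a, the oxygen-sensitive HIF subunit, had 25.0 ± 0.803 CPM in SNI+LDN193189, 27.6 ± 0.892 CPM in SNI and 24.7 ± 0.58 CPM in sham (log2 fold change of SNI against sham 0.17, SE 0.0703, adjusted p = 0.927 by edgeR). Usf2, an E-box factor, had 45.3 ± 3.92 CPM in SNI+LDN193189 and 53.7 ± 2.30 CPM in sham (-0.23, SE 0.0704, adjusted p = 0.431). Egln1, the hydroxylase that marks HIF for destruction, had 101 ± 1.80 CPM in SNI+LDN193189 and 93.8 ± 0.732 CPM in SNI (0.12, SE 0.0521, adjusted p = 0.9996). Pygl, a glycogen phosphorylase, had 6.23 ± 0.797 CPM in SNI and 9.28 ± 2.71 CPM in sham, where replicate 3 held 12.3 CPM. Gpd1, of the glycerol phosphate shuttle, had 20.1 ± 1.41 CPM in SNI+LDN193189 and 17.5 ± 0.163 CPM in sham. All 9 redox shuttle genes had a higher fitted level in SNI+LDN193189 against both SNI and sham, which share the SNI+LDN193189 libraries, with medians of 0.031 and 0.079. Of all genes tested 49.8% and 48.0% had a higher fitted level in the same comparisons. Against sham 10 of 12 oligodendrocyte, 9 of 11 astrocyte and 11 of 11 microglia markers were on the higher side, with medians of 0.089, 0.048 and 0.28, and all 10 markers of Schwann cells and nerve root on the lower (median -1.04). Their part in the redox shuttle values was not tested.

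The genes whose log2 CPM most resembled each of the 8 over the 9 libraries were sought among 10457 other genes of at least 10 CPM on average. For Slc2a1 they were Nfkbia, which encodes an inhibitor of NF-kB, and Mtmr2, a lipid phosphatase, each at Pearson r = 0.98. Nfkbia had 22.6, 20.1 and 32.0 CPM in SNI+LDN193189, against 19.1, 15.6 and 20.0 CPM in SNI and 14.2, 19.8 and 18.8 CPM in sham. Its highest library was also SNI+LDN193189 replicate 3, without which r was 0.94. For Ldha the most alike were Erc1 and H13 (0.96 and 0.95), for Ldhb Psme3 and Clta (both 0.96), for Slc2a3 Mcc and Ipo7 (0.95 and 0.94), for Slc16a1 Apeh and Igfbp4 (0.96 and 0.94), for Slc16a7 Cntn3 and Myo9a (0.96 and 0.94) and for Bsg Snx6 and Pias4 (both 0.93). For Slc16a3, searched among 10458 genes, they were Gnptg and Zcchc8 (0.96 and 0.94), at 0.89 and 0.81 without sham replicate 1. The highest of many correlations over 9 libraries is large by selection, so these are descriptions.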

How the data were processed

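Spinal cord RNA of male mice was sequenced in 9 libraries, 3 per group. Per the labels' protocols, poly(A) RNA was made into strand-specific libraries and read as 150 bp pairs; that text speaks of cell lines, whereas the tissue label is spinal cord. The deposited count table holds whole-number read counts per gene symbol, and the deposited FPKM table holds values the authors scaled by gene length and library total. The submitters' processing notes name mm10; aligner, counter and annotation release are not given in the sources used here. All 26285 genes with a count had an FPKM that equals the count divided by library total and a fixed length.

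CPM is the count scaled to the library total, without TMM factors. Counts were tested in edgeR 4.0.16 (R 4.3.3) by the quasi-likelihood F test with robust fitting, after filterByExpr (18245 genes left) and TMM scaling (factors 0.984 to 1.02), all 9 libraries in 1 fit with 6 residual degrees of freedom and a biological coefficient of variation of 0.132. The Benjamini-Hochberg adjustment ran over all genes tested, with a threshold of 0.05. The fit was tested on simulated data. Ratios of FPKM within a library were compared by exact permutation. Alternatives were DESeq2 1.42.0, limma 3.58.1 (voom, and log2 FPKM with added constants), no filter or a stricter one, other scale factors, the replicate number as a block, a nerve root covariate and leaving out each library. Symbols were placed with GENCODE M21 (GRCm38), copies were sought with blastn 2.17.0, and promoter windows came from RefSeq; Python 3.11.15, numpy 2.4.6, pandas 2.3.3, scipy 1.17.1 and matplotlib 3.10.9 served for the rest. No protein sequences were used here.

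The 8 genes and the pathway and marker lists were chosen with earlier results of these data known. Of each pathway list, the text could name up to 3 tested genes with the smallest p in each comparison. A gene that this rule gives is not reported here. Depth differed little between libraries, at 33432776 to 37190467 counts. Replicate numbers were checked for pairing by the correlation of same-numbered libraries' deviations from their group means. This was 0.167 to 0.324 for SNI and sham, which passes a limit of 0.1 in every pair. It was -0.132 to 0.12 for SNI+LDN193189 and SNI, and -0.249 to 0.0078 for SNI+LDN193189 and sham. Libraries of unlike number gave -0.223 to 0.086, -0.153 to 0.225 and -0.207 to 0.299 in the same order. Some of these also pass the limit, so passing it does not show that libraries were paired.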

Additional observations from a re-analysis of the deposited data

How the results depend on the processing

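Slc16a3 had 32 to 73 counts in a library, and each group had 3 libraries. Under 21 settings, 485 values were recomputed for the 24 combinations of gene and comparison, and 458 kept their direction; none had an adjusted p under 0.05, the lowest being 0.0681. Slc2a1 ranged from 0.23 to 0.39 (log2) against SNI and from 0.22 to 0.38 against sham. The joint test called 1 of the 8 genes with DESeq2, and 0 or 1 with DESeq2 and a library left out, which was chosen after seeing the data; it called 0 with the other settings run. With a replicate block 0 of the 8 were called in any comparison, and genes called in all were 0 for SNI against sham, 0 for SNI+LDN193189 against SNI and 4 for SNI+LDN193189 against sham. Every same-numbered pair of SNI and sham passed the limit of 0.1, which does not show that the libraries were paired. A block on those groups alone was added after seeing the data, and it called 33 genes, none of the 8. For the ratios the block kept the direction by its construction.

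The count of genes called for SNI against sham was 0 as reported, 25 with DESeq2, 18 with the nerve root covariate and 0 to 38 with a library left out, the 38 without sham replicate 1. For SNI+LDN193189 against SNI it was 1 as reported, 7 with DESeq2, 3 with the groups alone, 2 without filter or with voom, 4 with the covariate, 0 with log2 FPKM plus 0.1 or 1, and 0 to 2 with a library left out. For SNI+LDN193189 against sham it was 3 as reported, 62 with DESeq2, 30 without filter, 14 with the covariate, 1 with a filter of 50 counts or with log2 FPKM, and 1 to 17 with a library left out, the 17 without SNI replicate 3. The cause was not tested.

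Of the values of single genes 27 turned, in 11 of the 24 combinations. With the nerve root covariate, SNI against sham gave 0.068 for Slc2a1 and -0.0038 for Slc16a7, SNI+LDN193189 against SNI 0.021 for Slc2a3, and SNI+LDN193189 against sham 0.0022 for Slc16a1. The same covariate gave the widest values of SNI against sham for Slc16a1, 0.18, and Slc16a3, -0.61, both in the reported direction. Slc16a3 in SNI+LDN193189 against SNI turned to -0.0016 with library totals, -0.0097 with the replicate block, and -0.013 and -0.0015 with log2 FPKM plus 0.1 and 1. Bsg in SNI against sham turned to -0.0087 with library totals and to -0.0065 with both log2 FPKM settings. With a library left out, SNI against sham ranged from -0.097 to 0.039 for Slc2a1, -0.075 to 0.017 for Slc2a3, -0.025 to 0.11 for Slc16a1, -0.49 to 0.055 for Slc16a3, -0.0022 to 0.085 for Slc16a7 and -0.036 to 0.054 for Bsg. SNI+LDN193189 against SNI ranged from -0.16 to 0.018 for Ldha and -0.18 to 0.10 for Slc16a3, and SNI+LDN193189 against sham from -0.12 to 0.013 for Slc16a1 and -0.48 to 0.060 for Slc16a3.

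Log2 ratios turned as well. With FPKM plus 1, Slc16a1 to Slc16a7 turned to -0.013 against SNI and -0.015 against sham in SNI+LDN193189, and Slc16a3 to Slc16a1 to 0.00398 against sham. With a library left out, Slc2a1 to Slc2a3 ranged from -0.097 to 0.11 in SNI against sham. Slc16a1 to Slc16a7 ranged from -0.098 to 0.10 in SNI against sham, -0.034 to 0.10 in SNI+LDN193189 against SNI and -0.067 to 0.13 in SNI+LDN193189 against sham, and Slc16a3 to Slc16a1 from -0.48 to 0.095, -0.13 to 0.20 and -0.40 to 0.18 in the same order. The cause was not tested.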
